A study of Bos taurus with 24 samples.

Results

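Plasma of the mid-luteal phase (Day 8) was set against plasma of oestrus (Day 0) within the same 8 Holstein-Friesian heifers, which gave 16 of the 24 small-RNA libraries of the series. Compared were all 181 miRNAs, of the 870 listed, that were above 25 RPMM (reads scaled to 1000000 reads mapped to the genome) in 6 or more of the 8 heifers on each of these days, and 179 of them were bovine and 2 human entries (miR-210-3p and miR-4532). The heifers, 15 to 17 months old, had been synchronised with an intravaginal progesterone insert, the GnRH agonist buserelin and the prostaglandin analogue cloprostenol, so both days carry that treatment. Day 0 was the first day of observed oestrus, when a dominant follicle is about to ovulate, and Day 8 falls in the phase when the corpus luteum secretes progesterone. EDTA plasma was spun again to remove platelets and debris, and its RNA received a synthetic worm miRNA before library preparation. Each heifer, known by its number, gave 1 library a day, so differences are within animals, all of 1 breed and treated alike.

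miRNAs are short RNAs cut from hairpin precursors that guide Argonaute proteins to messenger RNAs, mainly through the seed, the bases that follow the first one at the 5′ end. In plasma they travel in vesicles, in Argonaute complexes and in lipoproteins, and most of them come from blood cells and platelets, with smaller shares from liver, endothelium and other tissues. A level in plasma therefore sums over many sources, and fewer cells releasing a miRNA cannot be told apart from less of it released per cell.

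The miRNAs on which the comparison turned are shown first, as the canonical bovine sequences that the isomiR table of the study lists, in DNA letters and with the seed (bases 2 to 8) in capitals. Such a sequence was listed for 121 of the 181 miRNAs. The first set was lower on Day 8 with an unadjusted p under 0.05 and came from the DLK1-DIO3 region of chromosome 21, where the miRNAs miR-381 and miR-411a also lie:
miR-154c: aGATATTGcacggttgatctct
miR-369-3p: aATAATACatggttgatcttt
miR-380-3p: tATGTAATgtggtccacgtct
The second set, also lower on Day 8, held miRNAs of connective tissue and smooth muscle, of the X-linked miR-532 cluster and of epithelium, with miR-10a shown because it has the seed and length of miR-10b and differs from it by 1 substitution (A12T, the base of miR-10b first, counted from the 5′ end):
miR-199a-5p: cCCAGTGTtcagactacctgtt
miR-10b: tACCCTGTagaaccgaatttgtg
miR-10a: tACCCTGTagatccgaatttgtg
miR-532: cATGCCTTgagtgtaggaccgt
miR-660: tACCCATTgcatatcggagctg
miR-205: tCCTTCATtccaccggagtctg
The third set came from the paired miR-23/27/24 clusters, in which miR-27a-3p and miR-27b have the same seed:
miR-23a: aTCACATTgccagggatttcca
miR-27a-3p: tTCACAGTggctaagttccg
miR-27b: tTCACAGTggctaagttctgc
miR-24-3p: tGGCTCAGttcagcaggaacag
The last set holds the 4 miRNAs of the AGTGCAA seed, of which miR-130b and miR-301b were higher on Day 8 with an unadjusted p under 0.05, and then miR-6529 and miR-744, higher by the same rule and with no seed partner among the sequences listed:
miR-130b: cAGTGCAAtgatgaaagggcat
miR-301b: cAGTGCAAtgatattgtcaaagcat
miR-301a: cAGTGCAAtagtattgtcaaagcat
miR-130a: cAGTGCAAtgttaaaagggcat
miR-6529: gAGAGATCagaggcgcagagt
miR-744: tGCGGGGCtagggctaacagca

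Libraries held 2197709 to 4700764 miRNA counts on Day 8 (median 3390108) and 1299679 to 3818770 on Day 0 (median 2761491), and 6 of 8 heifers had the larger total on Day 8 (exact p = 0.0859, two-sided, over all sign changes within heifers). The 181 miRNAs took 99.63% to 99.82% of the counts of each library, and the lowest count of any of them in the 16 libraries was 41, for miR-147, named because it holds that count. miR-486, of erythrocytes, took 8.26% to 36.8% of counts on Day 8 and 6.07% to 42.2% on Day 0. The log2 ratio of miR-451 to miR-23a, a sign of lysed erythrocytes, was 1.10 to 3.17 on Day 8 and 0.34 to 3.52 on Day 0, higher on Day 8 in 5 of 8 heifers (exact p = 0.422). Its denominator, miR-23a, was itself lower on Day 8 in RPMM in all 8 heifers, so the ratio does not measure lysis alone. The erythrocyte list (10 of its 12 listed miRNAs were among the 181, none at 0) summed to 106119 to 329219 RPMM on Day 8 and 65290 to 417210 RPMM on Day 0, the platelet list (12 of 13, none at 0) to 111555 to 216691 RPMM on Day 8 and 107944 to 217412 RPMM on Day 0. The part of depth and of blood cells in the differences described here was not tested.

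One animal stood apart. Over the 181 miRNAs, the log2 differences of heifer 21 correlated negatively with the mean of the other 7 (r = −0.56, across miRNAs that share a library and are not independent), whereas the same r was −0.06 to 0.55 for the others. Of the 26 miRNAs with an unadjusted p under 0.05, 2 had the direction of the fit in heifer 21 after TMM scaling, against 21 to 25 in each other heifer, all of which entered the fit that chose them. An exchange of the Day 8 and Day 0 samples of heifer 21 would turn the sign of each of its differences, and whether one took place was not tested. According to the paper, plasma progesterone profiles bore out the stage of the cycle. The labels were kept as given, heifer 21 stays in all values unless stated, and results are also given without it, a choice among the 8 possible omissions that was singled out after the values were seen.

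The median log2 fold change of Day 8 over Day 0 was 0.04 over the 181 miRNAs, with quartiles of −0.16 and 0.17, and 104 were above 0 and 77 below. It ran between −1.37 for the striated-muscle miRNA miR-133a and 0.49 for miR-215, of liver and gut epithelium, and 7 were beyond 0.5 in size. In no miRNA were the RPMM ranges of the days separate. With the quasi-likelihood test of edgeR (heifer as a term, Benjamini-Hochberg adjustment), 0 miRNAs were higher on Day 8 at an adjusted p under 0.1 (0.00% of those tested) and 2 were lower (1.10%), miR-154c and miR-381. That adjusted count was 0 with total counts, upper quartile scaling, limma on log2 values, no limit on low values or the 16 libraries alone, 15 with DESeq2 (14 lower) and 26 with limma-voom (19 lower). At an unadjusted p under 0.05, 6 were higher (3.31%) and 20 were lower (11.05%). That split depended on the scaling: it was 1 higher and 15 lower with total counts and 11 higher and 15 lower with upper quartile scaling. The exact test on RPMM, heifer by heifer, put 20 miRNAs under 0.05 before adjustment (8 higher, 12 lower) and none after it (smallest adjusted value 0.424). Without heifer 21, 85 miRNAs were above 0 and 96 below (median −0.01), and with edgeR 9 were higher (4.97%) and 24 lower (13.26%) at the adjusted threshold, 16 (8.84%) and 31 (17.13%) at the unadjusted one, and these held all 26. Heifer 21 had the direction of the fit in only 2 of the 26, so its omission favours them. The values without it, here and below, are therefore no independent support.

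**Figure D1:**
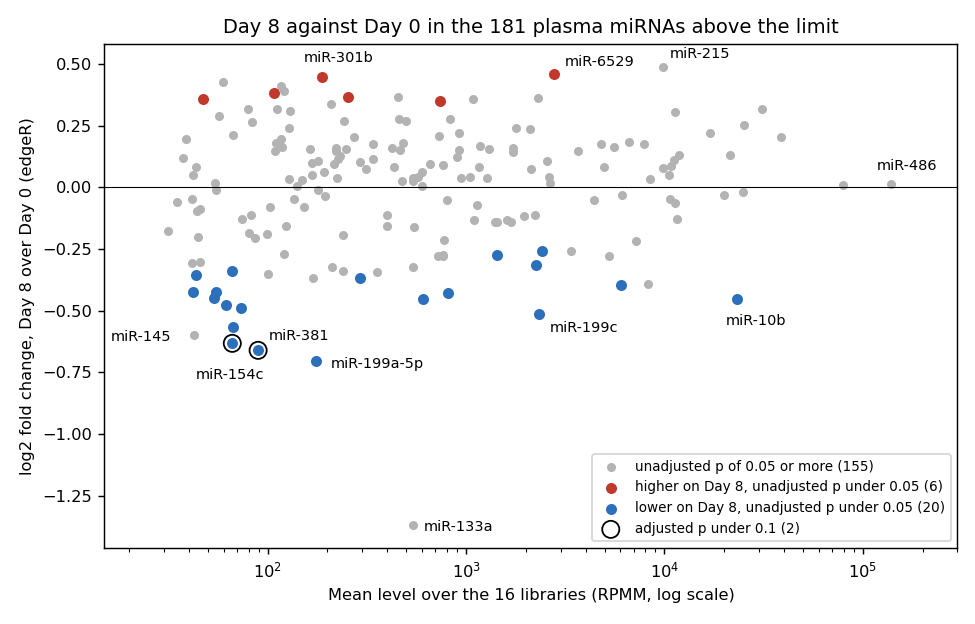
Log2 fold change of Day 8 over Day 0 (y axis) against the mean level over the 16 libraries in RPMM (x axis, log scale), 1 point for each of 181 miRNAs. Blue points (20, lower) and red points (6, higher) had an unadjusted p under 0.05, and the circled pair, miR-154c and miR-381, an adjusted p under 0.1; 14 of the 20 blue points lie under 1000 RPMM, and miR-10b is the blue point farthest to the right.

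Low miRNAs held many of the lower values. Of the 36 miRNAs with a mean under 100 RPMM, 10 were lower and 1 higher at an unadjusted p under 0.05 (median log2 fold change −0.15). Of the 83 between 100 and 1000 RPMM, 4 were lower and 4 higher (median 0.08), of the 44 between 1000 and 10000 RPMM, 5 were lower and 1 higher (median 0.04), and of the 18 above 10000 RPMM, 1 was lower and none higher (median 0.07). The median SE was 0.16, 0.18, 0.16 and 0.16 in these classes, in the same order.

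The DLK1-DIO3 region is an imprinted domain that in mouse and human carries one of the largest miRNA clusters of the genome, transcribed from the maternal chromosome. Of its 49 miRNAs in the table, 8 were among the 181, all on the plus strand of chromosome 21 in 4 stretches (from 65862179 to 66042804 in the deposited coordinates, for which the study names the UMD bovine assembly and the table no build). All 8 had log2 fold changes below 0, 6 with an unadjusted p under 0.05 (11.05% of all 181 were lower by that rule), and their median log2 fold change was −0.48, against 0.04 over all. The median over the 8 was below 0 in 7 of 8 heifers. Their summed level was 847 to 1348 RPMM on Day 8 (median 1164) and 1107 to 2355 RPMM on Day 0 (median 1338). The ranges overlapped, and miR-127 gave most of the sum.

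miR-154c had 33.8 to 70.2 RPMM (median 51.6) on Day 8, against 54.2 to 111 RPMM (median 76.6) on Day 0. It was lower on Day 8 in 6 of 8 heifers, and its log2 fold change was −0.63 ± 0.16 (SE, edgeR adjusted p = 0.0768). miR-381, which lies less than 10000 bases from it, had 43.7 to 103 RPMM (median 65.8) on Day 8, against 67.1 to 163 RPMM (median 103) on Day 0. It fell by 0.66 ± 0.17 on the log2 scale (SE, edgeR adjusted p = 0.0768), and was lower in 6 of 8 heifers. For both, heifers 20 and 21 had slightly higher levels on Day 8, while heifer 16, whose Day 0 library was the smallest (1299679 counts), had the largest drop (log2 difference in RPMM −1.34 for miR-154c and −1.66 for miR-381). Without heifer 21 the log2 fold changes were −0.78 and −0.84 (edgeR adjusted p = 0.00658 for each). The edgeR adjusted p of both was above 0.1 without heifer 16 (0.232), 18 (0.107 and 0.112), 22 (0.248), 25 (0.351), 34 (0.157) or 35 (0.180 and 0.160). With all heifers it was also above 0.1 with total counts (0.274 for both), upper quartile scaling (0.138), limma on log2(RPMM + 1) (0.346), no limit on low values (0.296) and the 16 libraries alone with the heifer block (0.368), and was 0.00646 with DESeq2.

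The other 6 of the region had smaller changes or larger errors. miR-380-3p had 48.05 to 58.3 RPMM (median 51.9) on Day 8, against 41.6 to 124 RPMM (median 70.1) on Day 0, a log2 fold change of −0.57 ± 0.18 (SE, edgeR unadjusted p = 0.00505), and on Day 8 its 8 values lay in a narrow band inside the range of Day 0. miR-369-3p had 30.6 to 69.4 RPMM (median 54.4) on Day 8, against 53.8 to 104 RPMM (median 67.3) on Day 0, with a log2 fold change of −0.48 ± 0.14 (SE, edgeR unadjusted p = 0.00302). For miR-411a the log2 fold change was −0.49 and for miR-127, antisense to the imprinted gene RTL1 in mouse and human, −0.43 (unadjusted p = 0.0135 and 0.0327, edgeR), although miR-127 was lower in RPMM in only 3 of 8 heifers, with log2 differences of −1.68, −0.96 and −0.82 in heifers 16, 18 and 22. miR-410 and miR-665, named as neighbours of miR-369-3p and miR-127, had log2 fold changes of −0.27 and −0.19 with unadjusted p above 0.05. Without heifer 21 all 8 were lower with an unadjusted p under 0.05 (17.13% of all 181) and 7 with an adjusted p under 0.1 (13.26% of all 181).

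Of the 13 miRNAs listed for mesenchymal cells (fibroblasts, smooth muscle and other connective tissue), 12 were below 0, 4 of them with an unadjusted p under 0.05 (11.05% of all 181), and 1 was above. Their median log2 fold change was −0.37, and the list median was below 0 in 7 of 8 heifers. This list, like the others, was chosen with earlier results of these data known, and near-identical entries in it were counted separately. The summed level was 22866 to 48110 RPMM on Day 8 (median 29484) and 28976 to 56329 RPMM on Day 0 (median 41977), to which miR-10b and miR-143 gave most. Without heifer 21, 9 were lower with an unadjusted p under 0.05 (17.13% of all 181) and 7 with an adjusted p under 0.1 (13.26% of all 181).

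miR-199a-5p and miR-214 are made from a common transcript that in mouse and human runs antisense to a dynamin gene and is active in fibroblasts, and they lie together on the minus strand of chromosome 16 (from 36242013 to 36247861). miR-199a-5p had 82.7 to 187 RPMM (median 123) on Day 8, against 127 to 452 RPMM (median 185) on Day 0. It was lower on Day 8 in 7 of 8 heifers (log2 fold change −0.70 ± 0.21, SE, edgeR unadjusted p = 0.00313, adjusted p = 0.107), with the largest drops in heifers 16 and 18 (−1.77 and −1.60) and a higher level on Day 8 in heifer 21 (0.53). miR-214 had 34.5 to 55.6 RPMM (median 49.0) on Day 8, against 49.0 to 68.0 RPMM (median 63.6) on Day 0, and the ranges overlapped only between 49.0 and 55.6 RPMM. It was lower in 7 of 8 heifers (log2 fold change −0.45 ± 0.12, SE, edgeR unadjusted p = 0.00174, adjusted p = 0.105). Without heifer 21 the log2 fold changes were −0.94 and −0.59 (edgeR adjusted p = 0.00961 and 0.00658).

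The miR-199 entries on chromosome 11 had unequal values. miR-199c had 1356 to 2994 RPMM (median 1980.4) on Day 8, against 1589.9 to 3568 RPMM (median 2655) on Day 0 (log2 fold change −0.51 ± 0.15, SE, edgeR unadjusted p = 0.00354), and was lower in 7 of 8 heifers. miR-199b, at −0.35, and miR-199a-3p, at −0.11, named as its neighbours on chromosome 11, had unadjusted p of 0.0636 and 0.61. The differences between them were not tested. Since 1 mismatch was allowed, the near-identical miR-199c and miR-199a-3p may share reads. On Day 0, heifers 16, 18 and 34 had 895, 2279 and 943 RPMM of miR-199a-3p, against 2449, 3393 and 2872 RPMM of miR-199c. In all other heifers on Day 0, and in every heifer on Day 8, the pair lay close together. The part of read assignment in their unequal fold changes was not tested. By its coordinates on the minus strand, miR-199b lies toward the 5′ end of the hairpin, apart from miR-199a-3p.

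miR-10b, from the HOXD gene cluster and high in smooth muscle and other mesenchyme, was the most abundant miRNA with an unadjusted p under 0.05. It had 14893 to 27697 RPMM (median 19449) on Day 8, against 18177 to 34349 RPMM (median 28606) on Day 0, was lower on Day 8 in 7 of 8 heifers, all except heifer 20, and had a log2 fold change of −0.45 ± 0.14 (SE, edgeR unadjusted p = 0.00473, adjusted p = 0.114). Unlike most, it was lower on Day 8 in heifer 21 too (−0.51). miR-10a, its seed partner from the HOXB cluster, had 3790.3 to 6072 RPMM (median 5199.6) on Day 8, against 3195 to 7700.2 RPMM (median 4593) on Day 0 and a log2 fold change of 0.08 ± 0.11 (SE, edgeR unadjusted p = 0.467), being lower in 2 of 8 heifers. The 2 differ by 1 base, so the allowed mismatch can carry reads between them.

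miR-143 and miR-145, made together in smooth muscle, had log2 fold changes of −0.39 ± 0.30 and −0.60 ± 0.29 (SE, edgeR unadjusted p = 0.199 and 0.0526). miR-143 was at 32517 RPMM in heifer 16 on Day 0, against 4602 to 8909 RPMM in the other heifers on that day. miR-145 had 12.9 to 61.2 RPMM (median 31.7) on Day 8, against 25.3 to 129.8 RPMM (median 44.3) on Day 0, and was lower in 7 of 8 heifers, with heifer 16 on Day 0 far above the rest. Leaving out single heifers put its log2 fold change between −0.80 without heifer 18 and −0.27 without heifer 16. miR-100, miR-99a-5p and miR-99b, which have the seed ACCCGTA, were at −0.34, −0.34 and −0.28, and miR-125b and miR-125a at −0.19 and −0.32, all with unadjusted p above 0.05. miR-99a-5p itself had 143 to 301 RPMM (median 197) on Day 8, against 147 to 435 RPMM (median 254) on Day 0, and miR-125b had 178 to 259 RPMM (median 211) on Day 8, against 123 to 500.4 RPMM (median 214) on Day 0, each wholly or nearly inside the range of Day 0.

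**Figure D2:**
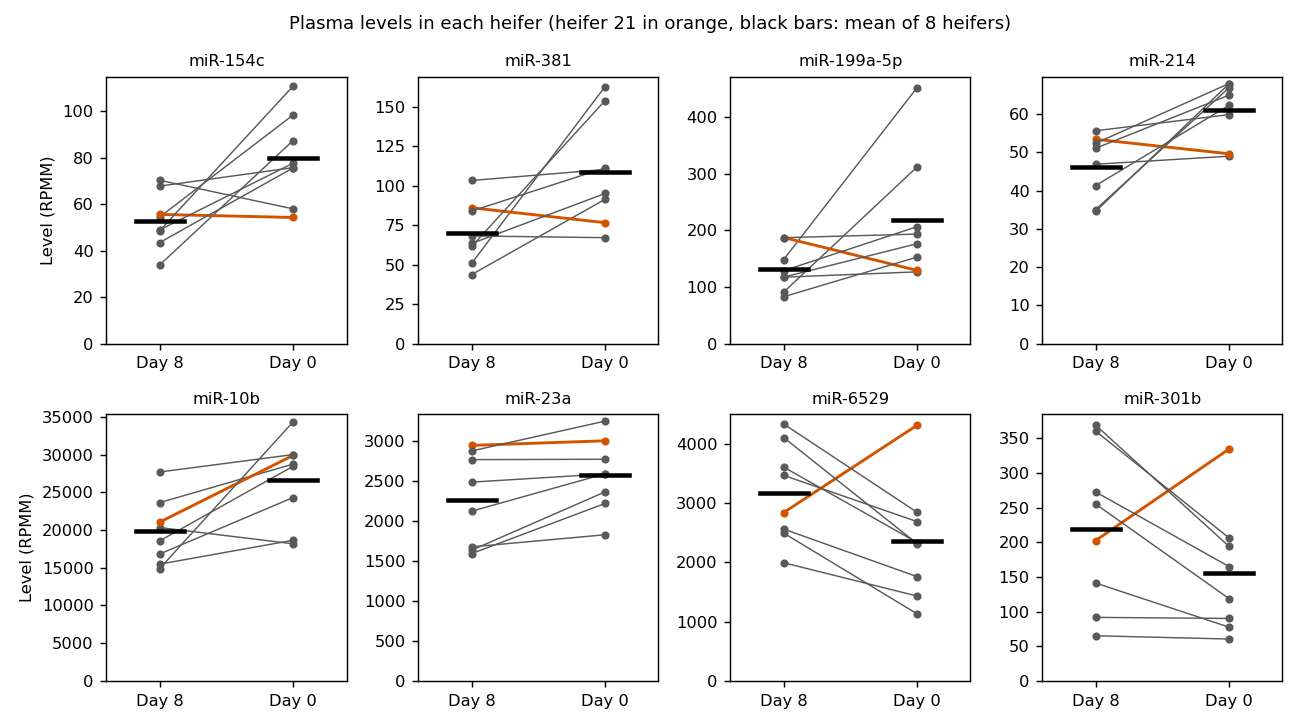
Levels in RPMM (y axes, each starting at 0) of 8 miRNAs on Day 8 (left) and Day 0 (right), 1 line for each of 8 heifers, heifer 21 in orange and black bars for the means. In the 6 lower miRNAs most lines climb toward Day 0, and in miR-6529 and miR-301b every line except that of heifer 21 descends; miR-23a is lower on Day 8 in all 8, in RPMM.

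The paired clusters of miR-23a, miR-27a-3p and miR-24-3p on chromosome 7 (from 10102172 to 10102527) and of miR-23b-3p and miR-27b on chromosome 8 take part in vessel growth and in blood cell differentiation. All 5 were below 0 (median −0.26), 3 of them with an unadjusted p under 0.05 (11.05% of all 181). miR-23a had 1595 to 2951 RPMM (median 2308) on Day 8, against 1831 to 3255 RPMM (median 2594) on Day 0, and was lower on Day 8 in RPMM in all 8 heifers, the 1 miRNA of 181 with 1 direction in every animal on that scale (log2 difference in RPMM −0.53 in heifer 16, but −0.03 in heifer 21 and −0.00247 in heifer 22). After TMM scaling it was lower in 7 of 8, and 0 of the 181 had 1 direction in every animal. The exact sign-change permutation test gave it p = 0.0078, the smallest that 8 pairs allow (0.424 after adjustment over 181), and edgeR a log2 fold change of −0.26 ± 0.11 (SE, adjusted p = 0.24). Its twin miR-23b-3p had 945 to 1873 RPMM (median 1219) on Day 8, against 1112 to 1803 RPMM (median 1501) on Day 0, a log2 fold change of −0.27 ± 0.12 (SE, edgeR unadjusted p = 0.033) and a lower level in 7 of 8 heifers.

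Within the TCACAGT seed the copies stood apart in value. miR-27a-3p had 3456 to 8069 RPMM (median 5006) on Day 8, against 4323 to 8531 RPMM (median 6976) on Day 0 (log2 fold change −0.40 ± 0.15, SE, edgeR unadjusted p = 0.0176), whereas miR-27b, several times more abundant, had 13755 to 26372 RPMM (median 20609) on Day 8, against 13318 to 25006 RPMM (median 19472) on Day 0 (log2 fold change −0.03 ± 0.13, SE, edgeR unadjusted p = 0.803, with a sign that turned under 3 of the alternative settings). The difference between the pair was not tested, and they may share reads. miR-24-3p was at −0.16 ± 0.16. Without heifer 21, miR-23a, miR-27a-3p and miR-23b-3p had edgeR adjusted p of 0.0487, 0.0259 and 0.0553 (13.26% of all 181 were then lower with an adjusted p under 0.1).

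The rest of the 20 came from several clusters. miR-532 and miR-660, the 2 of the 8 miRNAs of their X-linked cluster that passed the limit, lie within a chloride channel gene in human. miR-532 had 159.6 to 335 RPMM (median 259) on Day 8, against 229 to 419 RPMM (median 345) on Day 0 (log2 fold change −0.37 ± 0.12, SE, edgeR unadjusted p = 0.00772), and miR-660 1196 to 2749 RPMM (median 2082) on Day 8, against 1641 to 3456 RPMM (median 2486) on Day 0 (−0.31 ± 0.12, SE, edgeR unadjusted p = 0.0166). They were lower in 6 and 7 of 8 heifers, and without heifer 21 both had an adjusted p under 0.1 (0.0181 and 0.0487, edgeR), as had 13.26% of all 181 in the lower direction. miR-224, which in mouse granulosa cells lies downstream of TGF-beta, and miR-3431, its neighbour on the X chromosome, were each lower in 7 of 8 heifers. miR-224 had 42.1 to 84.2 RPMM (median 57.3) on Day 8, against 48.2 to 88.0 RPMM (median 71.4) on Day 0 (log2 fold change −0.34 ± 0.13, SE, edgeR unadjusted p = 0.0167), and miR-3431 18.8 to 51.3 RPMM (median 37.3) on Day 8, against 29.7 to 79.4 RPMM (median 43.3) on Day 0 (−0.43 ± 0.15, SE, edgeR unadjusted p = 0.00961). miR-205, a marker of stratified epithelium, had 313 to 875 RPMM (median 455) on Day 8, against 431 to 1016 RPMM (median 697) on Day 0 (−0.45 ± 0.18, SE, edgeR unadjusted p = 0.022). miR-2285t and miR-139 had log2 fold changes of −0.35 and −0.42 and complete the 20, miR-139 being named after its value was seen.

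Ovarian miRNAs were the next group. Of 7 miRNAs listed for granulosa and luteal cells, 3 were above 0 and 4 below (median −0.19). miR-224 was the 1 that was lower with an unadjusted p under 0.05, against 11.05% of all 181. Of this list, the study had picked let-7f, miR-125b and miR-378 from high-throughput data of these animals. It also listed miR-224 from those data, and reported miR-99a-5p and miR-145 from PCR of the same plasma. let-7f, of a family that restrains proliferation, had 1028 to 10093 RPMM (median 2335) on Day 8, against 699.8 to 6893 RPMM (median 3001) on Day 0 (log2 fold change 0.15 ± 0.34, SE, edgeR unadjusted p = 0.661), and was lower in 4 of 8 heifers. Its sign turned when heifer 18, 22, 25 or 35 was left out. The lower level of let-7f by PCR was thus not seen in these sequencing values, and the difference between the methods was not tested. All 8 miRNAs of the let-7 list, miR-98 among them, were above 0 by small amounts (0.04 to 0.24, median 0.12). None had an unadjusted p under 0.05, and the family median was above 0 in 4 heifers and below in 4. let-7a-3p, from the other arm of its hairpin and not in the list, was at −0.11. In other miRNA families (miR-15 with miR-16, miR-29, miR-30, miR-148 with miR-152, miR-181, and miR-2284 with miR-2285) list medians lay between −0.01 and 0.17. Among these, miR-2285t was the 1 member with an unadjusted p under 0.05. Of 6 epithelial miRNAs 4 were above 0 and 2 below (median 0.12), miR-205 being the 1 lower with an unadjusted p under 0.05, against 11.05% of all 181.

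**Figure D3:**
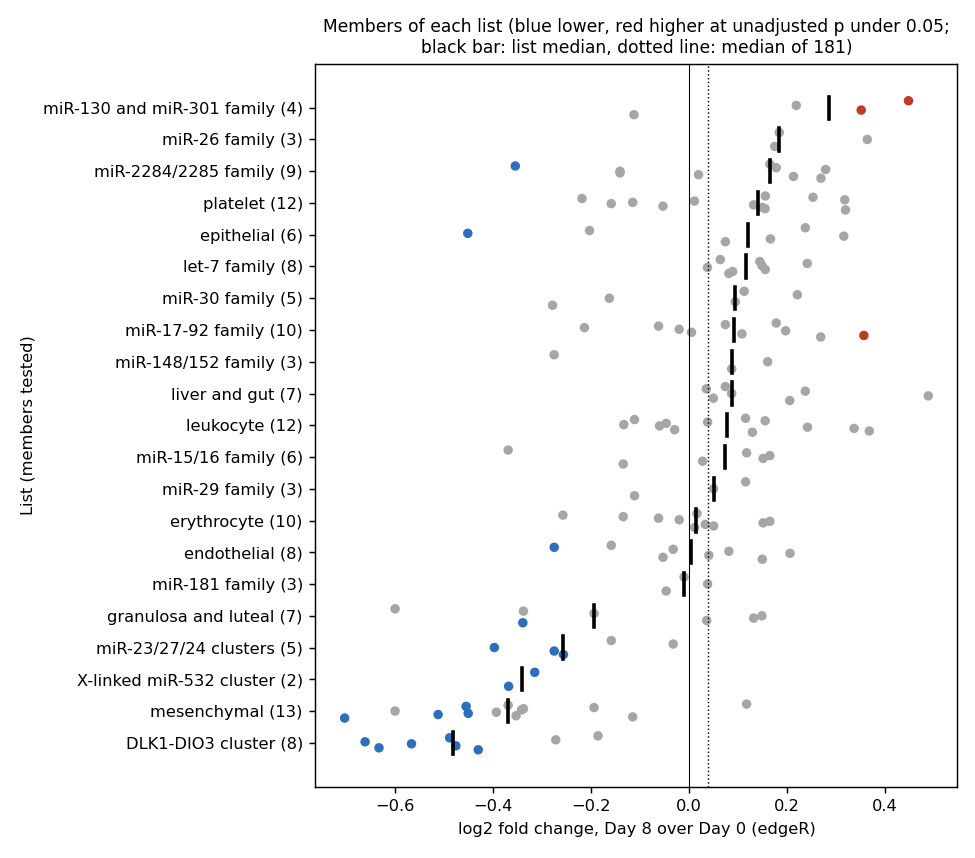
Log2 fold change of Day 8 over Day 0 (x axis) of the members of each list with more than 1 member among the 181 (y axis, number of members in brackets). Black bars are list medians and the dotted line is the median of all 181, 0.04; the DLK1-DIO3 (−0.48) and mesenchymal (−0.37) medians lie farthest to the left, and that of miR-130 and miR-301 (0.29) farthest to the right.

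The 6 miRNAs higher on Day 8 with an unadjusted p under 0.05 included none with an adjusted p under 0.1. Those of the AGTGCAA seed, the miR-130 and miR-301 family, were the list with the highest median (0.29), 2 of its 4 having an unadjusted p under 0.05 (3.31% of all 181 were higher by that rule). miR-301b and miR-130b come from neighbouring hairpins on chromosome 17 (from 75467538 to 75467881), and the family acts on growth and metabolic genes in several cell types. miR-301b had 65.2 to 369 RPMM (median 229) on Day 8, against 60.4 to 335 RPMM (median 142) on Day 0, and was higher on Day 8 in 7 of 8 heifers (log2 fold change 0.45 ± 0.20, SE, edgeR unadjusted p = 0.0342). miR-130b had 413 to 1365 RPMM (median 891) on Day 8, against 289 to 981 RPMM (median 651) on Day 0, and was higher in 7 of 8 (0.35 ± 0.15, SE, edgeR unadjusted p = 0.0278). The ranges of the days overlapped widely for both. miR-301a was at 0.22 ± 0.13 and miR-130a at −0.11 ± 0.13. Without heifer 21, 2 of the 4 had an adjusted p under 0.1, miR-301b (0.0487) and miR-130b (0.0681, edgeR), against 4.97% of all 181 higher by that rule.

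miR-6529, a bovine miRNA, had the smallest p among the higher ones. Its level was 1994 to 4335 RPMM (median 3154) on Day 8, against 1132 to 4314 RPMM (median 2326) on Day 0, higher on Day 8 in 7 of 8 heifers (log2 fold change 0.46 ± 0.16, SE, edgeR unadjusted p = 0.00809, adjusted p = 0.146), the highest value of Day 0 being that of heifer 21. miR-425-3p, made with miR-191 and miR-425-5p on chromosome 22, had 53.1 to 195 RPMM (median 126) on Day 8, against 44.5 to 133 RPMM (median 97.3) on Day 0 (0.38 ± 0.17, SE, edgeR unadjusted p = 0.0342), while miR-191, abundant in platelets, and miR-425-5p were at 0.32 and 0.16 with unadjusted p above 0.05. miR-744 had 154 to 412 RPMM (median 300.4) on Day 8, against 132 to 399 RPMM (median 199) on Day 0 (0.36 ± 0.15, SE, edgeR unadjusted p = 0.0278). miR-18a, of the oncogenic miR-17-92 cluster, had 30.9 to 85.8 RPMM (median 58.5) on Day 8, against 22.6 to 69.7 RPMM (median 38.1) on Day 0 (0.36 ± 0.16, SE, edgeR unadjusted p = 0.0351), and of the 10 of its family 7 were above 0 and 3 below (median 0.09).

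Next in order and above the threshold of 0.05 stood miR-155, of activated leukocytes, at 0.34 ± 0.16 (edgeR unadjusted p = 0.0504), miR-140, of cartilage, at 0.30 ± 0.15 (0.0521), miR-215 at 0.49 ± 0.24 (0.0544) and miR-330 at 0.41 ± 0.20 (0.0555). miR-155 was higher on Day 8 in 7 of 8 heifers, with 92.2 to 499 RPMM (median 245) on Day 8, against 63.8 to 304 RPMM (median 172) on Day 0. miR-215 and miR-192, which have the seed TGACCTA and mark liver and gut, had 2068 to 18942 RPMM (median 12146) and 30953 to 51208 RPMM (median 39696) on Day 8, against 657 to 16854 RPMM (median 7743) and 17514 to 60528 RPMM (median 35001) on Day 0. All 7 of the liver and gut list were above 0 (median 0.09), none with an unadjusted p under 0.05, and without heifer 21 there were 4 above and 3 below. The 3 miR-26 miRNAs, which restrain the cell cycle, were above 0 as well (miR-26a 0.18 ± 0.29 and miR-26b 0.36 ± 0.23), with unadjusted p above 0.05 and heifer 21 highest of all heifers on Day 0.

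**Figure D4:**
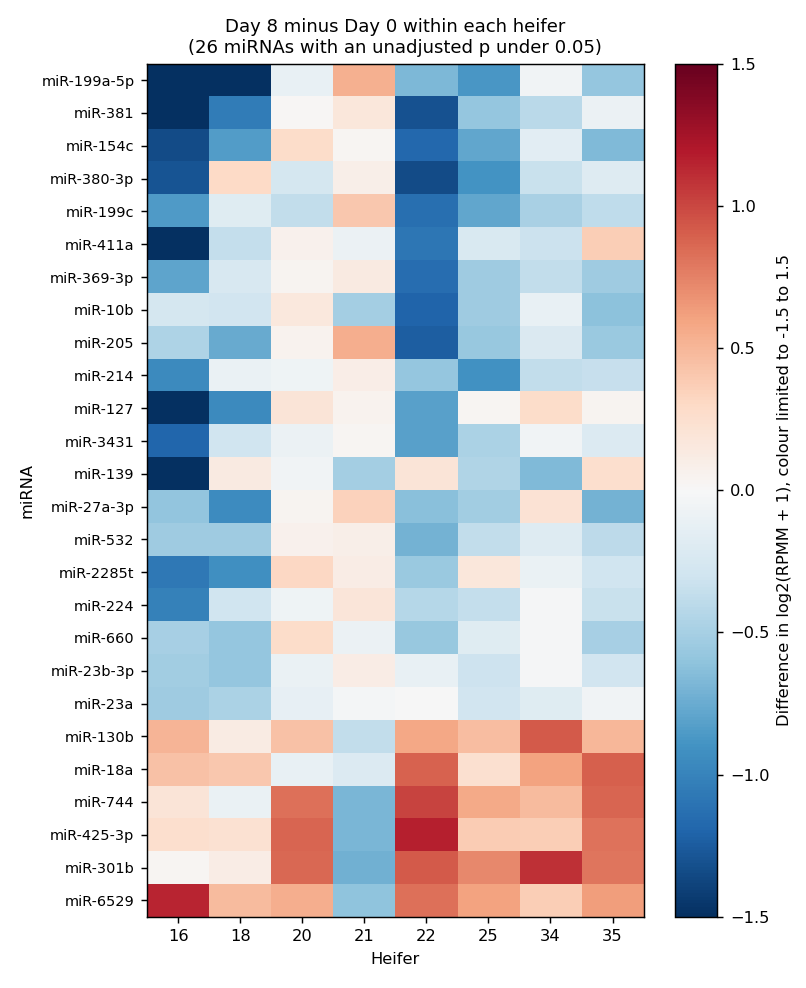
Difference of Day 8 minus Day 0 in log2(RPMM + 1) for each heifer (x axis) in the 26 miRNAs with an unadjusted p under 0.05 (y axis), blue for lower and red for higher on Day 8, with colour limited to −1.5 to 1.5. Only heifers 16 and 18 have blue fields past that limit. The column of heifer 21 is blue for the 6 miRNAs that the fit put higher on Day 8.

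Of the blood cell lists, the erythrocyte miRNAs had a median log2 fold change of 0.01 (6 above 0, 4 below). The platelet miRNAs had 0.14 (8 above, 4 below) and the leukocyte miRNAs 0.08 (7 above, 5 below). None of the members of these lists had an unadjusted p under 0.05, against 3.31% of all 181 higher and 11.05% lower. Without heifer 21 the erythrocyte median was −0.10 (2 above, 8 below), the platelet median 0.16 and the leukocyte median 0.04. With an unadjusted p under 0.05, 1 platelet miRNA was then higher, and 1 leukocyte miRNA higher and 1 lower. Of all 181, 8.84% were then higher and 17.13% lower by that rule. The 8 endothelial miRNAs had a median of 0.00, with miR-23b-3p the 1 lower with an unadjusted p under 0.05, against 11.05% of all 181. miR-486 had 56937 to 262961 RPMM (median 110235) on Day 8, against 31911 to 323269.7 RPMM (median 133231) on Day 0 (log2 fold change 0.01 ± 0.44, SE), and its sign turned under 3 of the alternative settings. Single heifers moved far in opposite directions. Between heifers, the log2 differences after TMM scaling had an SD of 1.56 for miR-486 and 1.32 for let-7f, against 0.18 for miR-30e-5p, miR-21-5p and miR-23a, named for having the largest and smallest spreads. The largest was that of miR-133a (SD 3.22), the 1 miRNA of 7 listed for striated muscle that passed the limit. miR-133a had 22.3 to 2915 RPMM (median 85.4) on Day 8, against 85.7 to 2309 RPMM (median 258) on Day 0, and its log2 fold change of −1.37 ± 0.91 (SE, edgeR unadjusted p = 0.146) lay between −2.19 and −0.76 when single heifers were left out.

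The 10 miRNAs with the highest levels took 60.4% ± 5.13 of the counts on Day 8 and 60.0% ± 4.88 on Day 0 (SD, n = 8 each). Apart from miR-10b, none of the 10 had an unadjusted p under 0.05: miR-486, miR-22-3p (0.01 ± 0.13), miR-192 (0.21 ± 0.20), miR-191 (0.32 ± 0.18), miR-30d (0.22 ± 0.17), miR-27b, miR-142-5p of leukocytes (0.13 ± 0.14), miR-92a of erythrocytes (−0.02 ± 0.25) and miR-423-5p (0.25 ± 0.16), each a log2 fold change with its SE. Of the 2 human entries, miR-210-3p was at 0.18 ± 0.16 and miR-4532 at −0.32 ± 0.31.

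Day 8 was also set against Day 16 of the same heifers, the late luteal phase, which shares the Day 8 libraries with the comparison above. With edgeR 0 miRNAs had an adjusted p under 0.1 (DESeq2 also 0). An unadjusted p under 0.05 was found for 7 of the 181, 2 higher and 5 lower on Day 8. That count is no larger than an unadjusted threshold of 0.05 alone would let through. For miR-154c and miR-381 the log2 fold change of Day 8 over Day 16 was −0.20 and −0.13, and for miR-199a-5p −0.01. miR-10b was at −0.36 (edgeR unadjusted p = 0.0207, adjusted p = 0.807) and miR-155 at 0.36 (edgeR unadjusted p = 0.0399, adjusted p = 0.807).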

How the data were processed

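Raw read counts per miRNA were used as the authors deposited them: reads without adaptor or with an unread base were removed, and the rest assigned to mature bovine and human miRNAs by sRNAbench with Bowtie 0.12.9, allowing 1 mismatch. The deposited RPM values, called RPMM, are those counts scaled to 1000000 reads mapped to the genome, and served for levels and for the limit on low values. No sample column was left unused (0). The members and lists were chosen with earlier results of these data known.

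Counts of the 181 miRNAs in all 24 libraries were TMM-scaled and analysed in edgeR 4.0.16 (quasi-likelihood, R 4.3.3) in a model of heifer plus day, since the labels give the same heifer number on each day. The contrast was Day 8 minus Day 0, with Benjamini-Hochberg adjustment over 181 miRNAs, an adjusted threshold of 0.1 and an unadjusted one of 0.05. The SE is the log2 fold change over the square root of F. All 256 sign changes over the 8 heifers gave exact two-sided tests on log2(RPMM + 1). Lists (22, by cell type, genomic cluster or miRNA family, from general knowledge) were described by counts and medians. Named were the 10 miRNAs with the smallest p in each direction, the 10 most abundant, the 2 with the smallest p in each list, and miR-99a-5p, let-7f, miR-145 and miR-125b, beside those named for a shared hairpin, seed or cluster, or for spread. Alternatives were other scalings, DESeq2 1.42.0, limma 3.58.1 on log2 values and with voom, other limits on low values, the 16 libraries alone, no heifer term, robust fitting and leaving out each heifer. Python 3.11.15, numpy 2.4.6, pandas 2.3.3 and matplotlib 3.10.9 were used, and the fit was tested on simulated data. Depth limits low miRNAs most: at least 41 counts stood behind each value of the 181.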

Additional observations from a re-analysis of the deposited data

Results flagged for a closer look

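Values of single libraries were examined in 134 groups (a miRNA or measure on a day, n = 8 heifers each) for a highest or lowest value set far apart from the rest, and 8 were found. Chance gives about 1 in 20 groups only if the values are normally distributed. RPMM values were not checked for that, and groups share libraries, so the 8 cannot be set against that rate. miR-133a was at 2915 RPMM in heifer 35 on Day 8 (others 22.3 to 667) and at 2309 RPMM in heifer 22 on Day 0 (others 85.7 to 877). miR-199c was at 2994 RPMM in heifer 18 on Day 8 (others 1356 to 2111), and miR-145 at 129.8 RPMM in heifer 16 on Day 0 (others 25.3 to 57.5). miR-143, which was not among the groups examined, was at 32517 RPMM in that same library (others 4602 to 8909). The other 4 were all those of heifer 21 on Day 0: miR-191 at 56953 RPMM (others 14067 to 27302), miR-26a at 17075 RPMM (others 2930 to 8551), miR-26b at 4418 RPMM (others 591 to 2063) and miR-744 at 398.7 RPMM (others 132.5 to 253.4).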

How the results depend on the processing

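The main counts were 0 higher and 2 lower at the adjusted threshold and 6 higher and 20 lower at the unadjusted one. At the adjusted threshold the lower count was 8 with RLE scaling, 4 above 100 RPMM (128 tested, miR-154c and miR-381 not among them), 14 with DESeq2 (and 1 higher), 19 with limma-voom (and 7 higher), and 0 with total counts, upper quartile scaling, limma on log2(RPMM + 1) or log2(RPMM + 0.1), no limit on low values (677 tested) or the 16 libraries alone with the heifer block. At the unadjusted threshold the higher count was 1 with total counts, 11 with upper quartile scaling, 13 with DESeq2, 20 with limma-voom, 38 with no limit, 12 with filterByExpr (360 tested) and 3 above 100 RPMM, and the lower count 12 with each limma fit and above 100 RPMM and 36 with filterByExpr. The causes were not tested. Leaving out each heifer gave 0 to 24 lower and 0 to 9 higher at the adjusted threshold, and 1 to 16 higher and 16 to 31 lower at the unadjusted one, the highest each time without heifer 21; members at an exact p under 0.05 were 6 to 43, against 20.

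Pairing rests on the heifer numbers of the labels. With no replicate block the unadjusted counts were 3 higher and 16 lower, and the adjusted one 2 lower; the log2 fold change of miR-486 was −0.00734.

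Leaving out each heifer moved the difference in total counts between 562081 and 935376, in miRNAs with more than 10 counts between 10 and 18.4 (−0.125 for those above 1 RPMM, against 13.6), (both with an exact p under 0.05 only without heifer 21), and in the miR-486 percentage between −4.14 and 2.80. Signs turned for small log2 fold changes: miR-22-3p (−0.0185 with total counts, −0.0219 with total counts without miR-486, −0.0378 above 100 RPMM), miR-92a (0.0137 with upper quartile scaling, 0.0453 with each limma fit, 0.0882 with no limit, 0.00302 with 16 libraries), miR-27b (0.00264 with each limma fit, 0.0737 with no limit), miR-181a (0.0475 with voom, 0.0523 with no limit), miR-181b (−0.00875 above 100 RPMM), miR-375 (−0.0207 with voom) and miR-486 (−0.387 with voom, −0.0210 above 100 RPMM). Over the omissions of a heifer, ranges that crossed 0 were −0.181 to 0.406 for let-7f, −0.0232 to 0.226 for let-7i, −0.181 to 0.0327 for miR-181a, −0.0822 to 0.0767 for miR-181b, −0.0804 to 0.0595 for miR-22-3p, −0.0700 to 0.396 for miR-26a, −0.122 to 0.00500 for miR-27b, −0.444 to 0.331 for miR-486 and −0.207 to 0.119 for miR-92a.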
